A study of Homo sapiens with 16 samples.

Results

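The genes described are 10 enzymes and lipid droplet proteins of triglyceride metabolism: GPAT3, GPAT4, AGPAT2, LPIN1, LPIN2, DGAT1, DGAT2, PLIN2, PNPLA2 and MGLL. They are 10 of the 58051 genes in the count table, matched by Ensembl gene identifier, and all 10 had enough counts to be tested. They were chosen around the rise of DGAT2 with the inhibitor MKC8866, so their differences between MKC8866 and Vehicle are given as descriptions without a test. RNA-seq was performed in LNCaP cells, an established human prostate cancer line that expresses the androgen receptor. In the knockdown experiment, siCtrl cells received Allstar control siRNA and siXBP1 cells received siRNA against XBP1, and thapsigargin was added 2 days later. In the inhibitor experiment, Vehicle cells received DMSO and MKC8866 cells received 10 µM MKC8866, in each case for 24 h before thapsigargin. All 4 groups were exposed to 30 nM thapsigargin for 3 h and none was left without it, so every level below is a level under mild endoplasmic reticulum (ER) stress. Each group had 4 libraries from this 1 cell line. The libraries of a group are described in the study as independent samples, without saying whether they came from separate cultures, so the p-values measure the spread between these libraries, which may be technical.

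Triglycerides are built on the ER membrane from glycerol-3-phosphate and fatty acyl-CoA. Glycerol-3-phosphate acyltransferases add the first acyl chain, acylglycerolphosphate acyltransferases add the next and give phosphatidic acid, lipins remove the phosphate to give diacylglycerol, and the diacylglycerol acyltransferases DGAT1 and DGAT2 add the last chain. The product is stored in lipid droplets that bud from the ER and are coated by perilipins, and it is taken apart by lipases such as PNPLA2 and MGLL. Phosphatidic acid and diacylglycerol are also the starting points of phospholipid synthesis. IRE1α is an ER stress sensor whose RNase splices XBP1 mRNA to the form that encodes the transcription factor XBP1s. MKC8866 inhibits that RNase, thapsigargin causes ER stress by blocking the ER calcium pump, and the XBP1 siRNA lowers the mRNA itself.

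The libraries held 28713607 to 34509488 counted fragments each. Pairwise correlations of log2(CPM + 1) between libraries of the same group were 0.9975 to 0.9983. Levels are given as CPM, the counts of a gene for every 1000000 counts of the TMM-normalised library. XBP1 mRNA, the target of the siRNA, was at 383 ± 28.0 CPM (SD, n = 4) in siCtrl and 53.2 ± 1.40 CPM in siXBP1. This was a 7.20-fold lower level (edgeR quasi-likelihood test, adjusted p = 2.92e-20). With MKC8866 total XBP1 mRNA was higher, at 579 ± 34.0 CPM against 503 ± 25.3 CPM with Vehicle (log2 fold change 0.20, adjusted p = 0.00493, edgeR), and gene counts do not show its splicing. All 10 LNCaP and prostate luminal markers examined were expressed in every group. Their summed level was 4863 to 5085 CPM per library in siCtrl and 3845 to 3953 CPM in siXBP1, against 4902 to 5024 CPM in Vehicle and 5295 to 5442 CPM in MKC8866. These markers therefore moved with both treatments, and their part in the results below was not tested. Of 11 markers of adipocytes, hepatocytes, leukocytes, fibroblasts, endothelium and basal epithelium, only COL1A1 reached a mean of 1 CPM, and their summed level was 26.2 to 38.95 CPM across the 16 libraries. The adipocyte markers ADIPOQ and LEP had no counts in siCtrl or siXBP1. In the inhibitor experiment ADIPOQ had at most 1 count per library with Vehicle and 0 with MKC8866. LEP had at most 1 count per library with Vehicle and at most 2 with MKC8866. In bulk RNA, fewer cells expressing a gene and less of its RNA per cell cannot be told apart.

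Promoter sequence was available in the RefSeq table (GRCh38.p14, from 250 bases before to 50 after a start site) for 6 of the 10 genes, in 10 windows. DGAT1, DGAT2, GPAT4 and MGLL were not in it. The windows below were picked from those that hold a motif, in genes of the pathway whose mRNA changed after XBP1 knockdown in the test described next. They are printed 5′ to 3′ on the strand of the gene. The windows of GPAT3, also called lower, held neither motif, whereas that of PLIN2, which was not called, held both. Any link between motif and response was not tested. Capitals mark the matches, on either strand, to ACGTG, the core of the XBP1s and ATF6 type of ER stress element, and to CCACG, the other part of the ER stress response element.

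LPIN2, chr18:3013095-3013394, minus strand: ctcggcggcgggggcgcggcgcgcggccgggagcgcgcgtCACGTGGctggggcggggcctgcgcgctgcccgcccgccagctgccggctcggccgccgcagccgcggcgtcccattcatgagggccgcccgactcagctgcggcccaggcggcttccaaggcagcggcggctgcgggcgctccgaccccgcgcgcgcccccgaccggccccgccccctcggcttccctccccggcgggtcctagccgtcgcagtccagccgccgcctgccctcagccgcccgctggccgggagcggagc
LPIN1, chr2:11746382-11746681, plus strand: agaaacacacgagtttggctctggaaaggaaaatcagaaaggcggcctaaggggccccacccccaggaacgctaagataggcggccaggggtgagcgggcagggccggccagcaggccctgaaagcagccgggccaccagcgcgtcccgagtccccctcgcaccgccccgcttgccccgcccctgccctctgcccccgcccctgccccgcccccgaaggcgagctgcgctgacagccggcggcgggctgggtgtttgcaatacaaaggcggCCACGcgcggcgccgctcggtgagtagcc
AGPAT2, chr9:136687408-136687707, minus strand: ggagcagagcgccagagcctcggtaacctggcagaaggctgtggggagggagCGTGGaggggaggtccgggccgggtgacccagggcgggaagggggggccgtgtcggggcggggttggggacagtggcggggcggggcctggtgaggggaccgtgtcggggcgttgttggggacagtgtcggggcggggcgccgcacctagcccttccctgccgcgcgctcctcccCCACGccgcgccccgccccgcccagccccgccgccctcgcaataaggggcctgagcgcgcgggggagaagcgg

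The LPIN2 window held the palindrome CACGTG, which gives ACGTG on both strands, and an overlapping CCACG on the opposite strand. The LPIN1 window held 1 CCACG and the AGPAT2 window held 2, with no ACGTG in either. Of the other windows, that of PLIN2 held 3 matches to ACGTG, including a CACGTG, and 3 to CCACG. A further LPIN1 window held 1 CCACG, and the remaining windows of LPIN1, LPIN2, GPAT3 and PNPLA2 held neither motif. Among 35116 promoter windows of this length, 21.4% held ACGTG, 38.1% held CCACG and 7.26% held CACGTG, and the motifs overlap in sequence. Neither TGACGTGG (0.729% of windows) nor the full ER stress response element, in which 9 bases separate CCAAT from CCACG (0.0769%), occurred in a window of these genes.

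XBP1 knockdown asks how the pathway responds when the mRNA of the IRE1α target is lost. The largest difference among the 10 genes was in GPAT4, the ER enzyme of the first acylation step, which fell by more than a factor of 2. LPIN2, LPIN1, MGLL, GPAT3 and DGAT2 fell by smaller amounts, and AGPAT2 rose. DGAT1, PLIN2 and PNPLA2 did not pass the test. Thus 7 of the 10 genes were called, against 34.8% of the 21021 genes tested. Of these, 6 were called lower, against 18.2%, and 1 was called higher, against 16.5%. With DESeq2, 4 were called lower. The median log2 fold change was -0.28 over the 10 genes and 0.0050 over all genes tested. In a fit of genes with at least 10 counts in every library, 4 of the 10 were called lower and 1 higher. Of the 16620 genes in that fit, 3683 were called lower and 3664 higher, which are larger shares than those above.

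**Figure D1:**
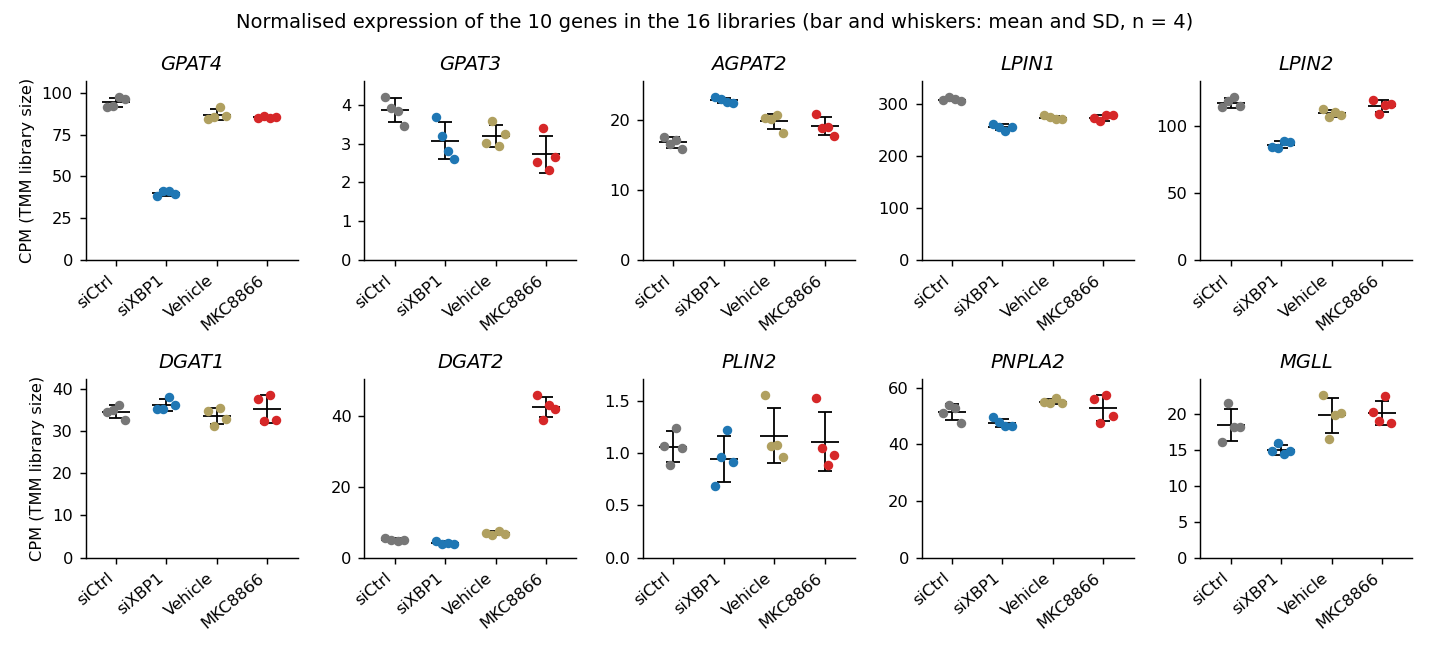
Normalised expression (CPM, linear axes from 0) of the 10 genes in each library of the 4 groups, with black bars for the mean and whiskers for the SD of 4 libraries. GPAT4 stands apart in siXBP1 at 38.1 to 41.4 CPM, and DGAT2 stands apart in MKC8866 at 39.0 to 45.9 CPM.

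GPAT4 (ENSG00000158669, chromosome 8, 41577187 to 41625001, GRCh38, plus strand) was at 91.6, 92.4, 97.5 and 96.2 CPM in siCtrl and at 38.1, 41.4, 41.2 and 39.3 CPM in siXBP1. Every knockdown library was below every control library. The level was 2.36-fold lower after knockdown (log2 fold change -1.24, SE 0.0457, adjusted p = 2.22e-15, edgeR). With Vehicle it was 84.7, 85.7, 91.7 and 86.0 CPM and with MKC8866 84.9, 86.2, 84.95 and 85.9 CPM, a log2 difference of -0.02 (SE 0.0417). The libraries of those groups overlapped, so the lower level of GPAT4 was seen in siXBP1 alone among the 4 groups. A gene on the opposite strand, ENSG00000264578, shares 729 bases of its exons, and reads were counted without regard to strand.

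GPAT3 (ENSG00000138678, chromosome 4, 83535914 to 83605875, plus strand), the other ER enzyme of this step, was expressed at a much lower level. Its libraries were at 4.20, 3.93, 3.86 and 3.46 CPM in siCtrl and at 3.69, 3.21, 2.81 and 2.62 CPM in siXBP1. The groups overlapped, and the fall of 0.33 on the log2 scale (SE 0.126) was just past the threshold (adjusted p = 0.0488, edgeR). The call was lost in 6 of 8 fits that left out 1 library (siCtrl replicate 1, 2 or 3, or siXBP1 replicate 2, 3 or 4), with adjusted p from 0.0196 to 0.182 over the 8. With MKC8866 the level was 2.73 ± 0.472 CPM (SD, n = 4) against 3.21 ± 0.290 CPM with Vehicle.

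Per kilobase of exon, GPAT4 exceeded GPAT3 in every group. GPAT4 was at 11.9 ± 0.360 CPM per kb in siCtrl and 5.04 ± 0.200 CPM per kb in siXBP1, and GPAT3 at 1.11 ± 0.0884 and 0.889 ± 0.137 CPM per kb. The share of GPAT4 in the sum of both transcripts per length was 90.5% to 92.4% in the siCtrl libraries and 81.8% to 86.8% in the siXBP1 libraries, which did not overlap. With Vehicle it was 92.2% ± 0.796 and with MKC8866 93.2% ± 1.05.

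AGPAT2 (ENSG00000169692, chromosome 9, 136673143 to 136687423, minus strand), which forms phosphatidic acid, moved in the opposite direction after knockdown. It was at 17.7, 16.6, 17.2 and 15.9 CPM in siCtrl and at 23.3, 23.1, 22.6 and 22.4 CPM in siXBP1. All 4 knockdown libraries were higher, by 1.36-fold (log2 fold change 0.44, SE 0.0590, adjusted p = 3.11e-06, edgeR). Non-overlapping higher libraries were found in 15.5% of all genes tested in this comparison and, of the 10 genes, in AGPAT2 alone. Vehicle libraries ranged from 18.2 to 20.8 CPM and MKC8866 libraries from 17.8 to 20.9 CPM. Both controls differed for this gene, since every Vehicle library was above every siCtrl library.

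LPIN1 (ENSG00000134324, chromosome 2, 11677595 to 11827409, plus strand) and LPIN2 (ENSG00000101577, chromosome 18, 2916994 to 3013315, minus strand) encode phosphatidate phosphatases that supply diacylglycerol. LPIN1 was at 306.55, 312, 309 and 304 CPM in siCtrl and at 260.49, 256, 247.5 and 256 CPM in siXBP1. LPIN2 was at 114, 119, 122 and 115 CPM in siCtrl and at 84.3, 83.4, 88.9 and 87.8 CPM in siXBP1. For both genes the knockdown libraries lay wholly below the controls. LPIN1 fell by 0.27 on the log2 scale (SE 0.0360, adjusted p = 2.60e-06, edgeR) and LPIN2 fell by 0.45 (SE 0.0419, adjusted p = 1.63e-08). With GPAT4 and MGLL they made 4 of the 10 genes with non-overlapping lower libraries, against 17.2% of all genes tested. In the inhibitor experiment LPIN1 was at 273 ± 3.34 CPM with Vehicle and 273 ± 5.42 CPM with MKC8866, and LPIN2 was at 109.6 ± 2.52 and 115 ± 4.54 CPM (SD, n = 4 each). Their log2 differences were 0.0024 (SE 0.0360) and 0.07 (SE 0.0419). For both genes the controls also differed, every Vehicle library being below every siCtrl library. The Vehicle libraries were at 270.17 to 277.54 CPM for LPIN1 and at 107.02 to 112.61 CPM for LPIN2. The share of all genes whose controls did not overlap was not counted.

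DGAT1 (ENSG00000185000, chromosome 8, 144314584 to 144326910, minus strand), 1 of the enzymes of the last step, varied little among the groups. Its means were 34.7 ± 1.48 CPM in siCtrl, 36.2 ± 1.36 CPM in siXBP1, 33.6 ± 1.88 CPM with Vehicle and 35.3 ± 3.27 CPM with MKC8866 (SD, n = 4 each). Ordered by mean, each group overlapped the next. The knockdown difference of 0.06 on the log2 scale (SE 0.0515, adjusted p = 0.395, edgeR) had a 95% interval of -0.04 to 0.16. ENSG00000254690 on the same strand shares 444 bases of the DGAT1 exons, and HSF1 on the opposite strand shares 139. The effect of these overlaps on the counts was not tested.

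DGAT2 (ENSG00000062282, chromosome 11, 75759512 to 75801535, plus strand, 7905 exon bases) catalyses the same reaction as DGAT1 but belongs to an unrelated protein family. It was at 7.02, 6.32, 7.54 and 6.55 CPM in the Vehicle libraries and at 45.9, 39.0, 42.95 and 41.9 CPM in the MKC8866 libraries. The raw counts were 183 to 230 and 1181 to 1449 fragments. Every MKC8866 library was several times above every other library of the series. The difference was 6.195-fold (log2 fold change 2.63, SE 0.0705, 95% interval 2.49 to 2.77). This value ranked 1 of 21045 genes tested, and the next gene called higher, BCAM, differed by 1.89-fold. These values are the ones that chose the genes. The fold change lay between 2.585 and 2.677 on the log2 scale when any 1 library was left out.

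In the knockdown experiment the same gene was lower, not higher. DGAT2 was at 5.56, 4.97, 4.75 and 5.07 CPM in siCtrl and at 4.80, 3.88, 4.24 and 3.89 CPM in siXBP1, from 121 to 176 fragments per library. The groups overlapped by 1 library, siXBP1 replicate 1 being above siCtrl replicate 3. DGAT2 fell by 0.28 on the log2 scale (SE 0.108, 95% interval -0.49 to -0.07), with an adjusted p of 0.0493 (edgeR) that lay just inside the threshold. The call was lost without siCtrl replicate 1, 2 or 4 or siXBP1 replicate 2, 3 or 4 (log2 fold change -0.34 to -0.23 and adjusted p 0.0273 to 0.148 over the 8 libraries left out), and with DESeq2 (adjusted p = 0.0801). The interval lay below 0 in siXBP1 cells, whereas DGAT2 was 2.63 higher on the log2 scale in MKC8866 cells. The difference between these responses was -2.91 (SE 0.120), given without a test because the inhibitor contrast chose the gene.

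The controls of the experiments also differed for DGAT2. Every Vehicle library was above every siCtrl library, with means of 6.86 ± 0.540 and 5.09 ± 0.341 CPM (SD, n = 4 each). The order of the group means was siXBP1, siCtrl, Vehicle and MKC8866, and only siXBP1 and siCtrl overlapped. Transfection, the time of pretreatment and the experiment cannot be told apart in the difference between controls.

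**Figure D2:**
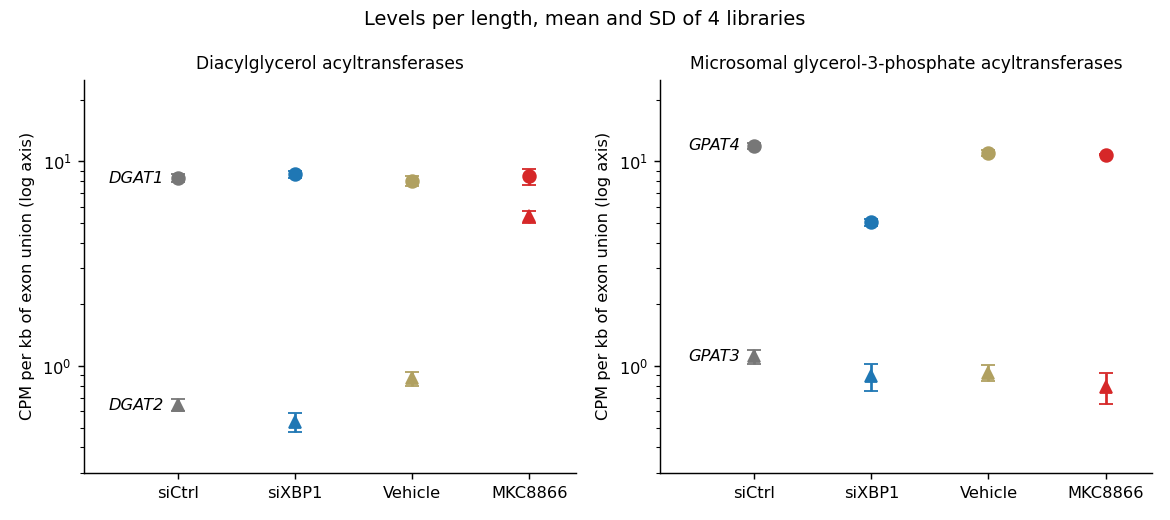
Mean level per length (CPM per kb of exon union, log axis) of DGAT1 and DGAT2, and of GPAT4 and GPAT3, with the SD of 4 libraries in each group. DGAT2 approaches DGAT1 only in MKC8866, at 5.37 against 8.42 CPM per kb, and GPAT4 is lower in siXBP1 at 5.04 CPM per kb.

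Levels per length placed DGAT2 far below DGAT1 in 3 of the 4 groups. DGAT2 was at 0.644 ± 0.0432 CPM per kb in siCtrl, 0.532 ± 0.0545 in siXBP1, 0.868 ± 0.0683 with Vehicle and 5.37 ± 0.362 with MKC8866. DGAT1 was between 8.00 and 8.63 CPM per kb in the group means. The share of DGAT2 in the sum of both transcripts per length was 7.24% ± 0.619 in siCtrl, 5.81% ± 0.631 in siXBP1 and 9.78% ± 0.255 with Vehicle (SD, n = 4 each). With MKC8866 it was 39.3%, 39.0%, 37.1% and 40.5% in the 4 libraries. DGAT1 thus remained the more abundant transcript per length in every library.

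The genes that overlap DGAT2 had at most 3 counts in any library, and the source of individual reads was not tested. On the opposite strand, ENSG00000254814 shares 423 of its exon bases and DGAT2-DT shares 117. Of 21 other genes within 300000 bases, 4 had enough counts to be tested. MOGAT2, a monoacylglycerol acyltransferase of the same family that lies 26554 bases away, was at 1.72 CPM with Vehicle and 1.74 CPM with MKC8866 (log2 difference 0.01, SE 0.184). The log2 differences of GDPD5, UVRAG-DT and UVRAG were 0.22 (SE 0.133), 0.17 (SE 0.468) and 0.07 (SE 0.0562). These neighbours were chosen by position after the values of DGAT2 were seen.

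The genes whose log2(CPM + 0.1) followed that of DGAT2 most closely over the 16 libraries were CD59 (Pearson r = 0.976), ADAMTS15 (0.975), RDH11 (0.974), BCAM (0.972) and PTK7 (0.964), of 15041 genes with a mean of at least 1 CPM. CD59 is a membrane inhibitor of complement and RDH11 a retinol dehydrogenase of the ER. Their own log2 fold changes with MKC8866 were 0.71, 0.64, 0.40, 0.92 and 0.41, all far below that of DGAT2. The lowest correlations were those of DNAJC12 (-0.941), DNAJB5 (-0.940), PPP1R10 (-0.921), MAGEA12 (-0.911) and IKZF5 (-0.906). All of these correlations share the 4 MKC8866 libraries, in which DGAT2 stands apart. Over the other 12 libraries the correlations of CD59, ADAMTS15, RDH11, BCAM and PTK7 with DGAT2 were 0.695, 0.870, 0.481, 0.804 and 0.630. Those of DNAJC12, DNAJB5, PPP1R10, MAGEA12 and IKZF5 were -0.707, -0.862, -0.567, -0.777 and -0.258. These 12 libraries span both experiments, whose controls differed for DGAT2, and they were among the 16 that picked the genes. Differences between groups and variation within groups are not separated in these values.

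PLIN2 (ENSG00000147872, chromosome 9, 19108375 to 19149290, minus strand), the coat protein found on lipid droplets of most cells, was close to the detection limit in these cells. Its level was 1.06 ± 0.146 CPM in siCtrl, 0.946 ± 0.217 in siXBP1, 1.17 ± 0.265 with Vehicle and 1.11 ± 0.286 with MKC8866 (SD, n = 4 each). The groups overlapped throughout, at 20 to 46 counts per library. The knockdown difference of -0.17 on the log2 scale (SE 0.220, adjusted p = 0.625, edgeR) had a 95% interval of -0.60 to 0.27, so a change of moderate size was not detectable at this depth. The difference with MKC8866 was -0.07 (SE 0.216).

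PNPLA2 (ENSG00000177666, chromosome 11, 818902 to 825573, plus strand), adipose triglyceride lipase, releases the first fatty acid from triglyceride. It was at 51.4 ± 2.79 CPM in siCtrl and 47.6 ± 1.43 CPM in siXBP1, and the difference of -0.11 on the log2 scale (SE 0.0491) did not pass the test (adjusted p = 0.0899, edgeR; 0.0430 without siCtrl replicate 4). With Vehicle and MKC8866 it was at 55.1 ± 0.834 and 52.8 ± 4.66 CPM, and every Vehicle library was above every siCtrl library. On the opposite strand, ENSG00000255108 shares 401 bases of the PNPLA2 exons. MGLL (ENSG00000074416, chromosome 3, 127689062 to 127823250, minus strand), monoacylglycerol lipase, acts at the last step of lipolysis. It was at 16.04, 21.5, 18.1 and 18.1 CPM in siCtrl and at 14.8, 15.9, 14.4 and 14.8 CPM in siXBP1. The knockdown libraries were all lower, and siXBP1 replicate 2 was close to siCtrl replicate 1. MGLL fell by 0.30 on the log2 scale (SE 0.0773, adjusted p = 0.00386, edgeR). With Vehicle it was at 19.8 ± 2.48 CPM and with MKC8866 at 20.1 ± 1.71 CPM.

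**Figure D3:**
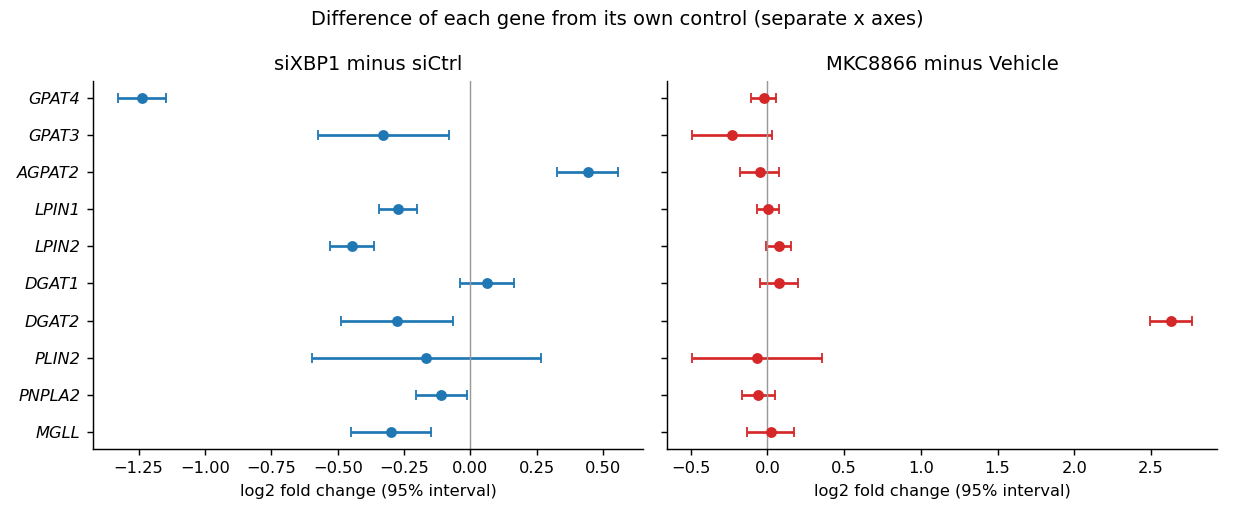
Log2 fold change of the 10 genes, with 95% intervals, after XBP1 knockdown (left) and with MKC8866 (right), each against its own control on its own x axis. On the left GPAT4 lies lowest at -1.24 and AGPAT2 highest at 0.44, and on the right DGAT2 lies at 2.63 while the other 9 genes lie between -0.23 and 0.07.

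With MKC8866 the other 9 genes of the group thus stayed between -0.23 (GPAT3, SE 0.132) and 0.07 (DGAT1, SE 0.0623) on the log2 scale. DGAT2 was the only one of the 10 past the threshold of the fit, where 4.47% of 21045 genes were called, 1.36% higher and 3.11% lower. It was also the only one whose MKC8866 libraries did not overlap the Vehicle libraries, against 3.98% of genes for higher and 5.29% for lower. As this contrast chose the genes, nothing is read from these counts. The median over the 10 genes was -0.01, and that over all genes tested was 0.0027. Set side by side, the responses to knockdown minus those to MKC8866 were -1.21 (SE 0.0585) for GPAT4, -0.52 (SE 0.0563) for LPIN2, -0.32 (SE 0.119) for MGLL, -0.27 (SE 0.0470) for LPIN1 and 0.49 (SE 0.0850) for AGPAT2, again without a test. The experiments had separate controls and pretreatment times, so the kind of inhibition and the experiment cannot be told apart in these differences.

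The rest of the pathway was followed in 4 lists of textbook genes: 18 other synthesis genes, 14 other storage genes, 9 other lipolysis genes and 25 genes of the phospholipid branch. After XBP1 knockdown, 53 of these 66 genes had enough counts to be tested. Of these, 14 were called higher and 15 lower, and 24 did not pass the test, against 16.5% of all genes tested called higher and 18.2% lower. The shares of all genes apply to each list below. The median log2 fold change was -0.01, near the 0.0050 of all genes tested.

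Among the synthesis genes, 3 of 13 tested were called higher and 2 lower. GPAM, the mitochondrial glycerol-3-phosphate acyltransferase, fell by 0.32 on the log2 scale, from 70.9 ± 1.42 CPM in siCtrl to 56.6 ± 0.933 CPM in siXBP1 (n = 4 each, adjusted p = 2.20e-06, edgeR). GK, the kinase that makes glycerol-3-phosphate from glycerol, rose by 0.28, from 11.7 ± 0.221 to 14.2 ± 0.825 CPM, without overlap of the libraries (adjusted p = 0.00277, edgeR). Of the acyl-CoA synthetases that activate fatty acids, ACSL1 rose by 0.14, from 925 ± 28.8 to 1018 ± 35.2 CPM, without overlap of the libraries (adjusted p = 0.00798, edgeR). ACSL3 (-0.06, adjusted p = 0.282) and ACSL4 (0.11, adjusted p = 0.472) did not pass the test. ACSL5 was at -0.52 (adjusted p = 0.0148) and ACSL6 at 0.84 (adjusted p = 0.0303). The ACSL5 call was lost without siCtrl replicate 2 or siXBP1 replicate 4 (adjusted p up to 0.0680), and the ACSL6 call without siCtrl replicate 3 or 4 or siXBP1 replicate 1 or 3 (adjusted p up to 0.0962). Both of these were at low levels, ACSL6 at 0.255 to 0.983 CPM in the libraries of this experiment.

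Of the storage genes, 5 of 9 tested were called lower and 0 higher with edgeR, and 0 were higher with DESeq2 or at an unadjusted p under 0.05. SOAT1, which makes cholesteryl esters, fell from 93.8 ± 4.46 to 65.1 ± 2.20 CPM (log2 fold change -0.53, adjusted p = 4.85e-09, edgeR, n = 4 each). HILPDA, an inhibitor of PNPLA2 found on lipid droplets, was 0.44 lower on the log2 scale (adjusted p = 0.000688) and LDAF1, a partner of seipin in droplet assembly, was 0.41 lower (adjusted p = 0.000245). FITM2, an ER protein needed for droplets to bud, and PLIN3 were lower by 0.26 and 0.21 (adjusted p = 0.000633 and 0.00527). The median of the list was -0.21.

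Of the lipolysis genes, 3 of 7 tested were called higher and 1 lower. LIPA, the acid lipase of lysosomes, fell from 58.7 ± 3.10 to 38.90 ± 2.00 CPM (log2 fold change -0.59, adjusted p = 5.85e-09, edgeR, n = 4 each). The monoacylglycerol hydrolases ABHD12 and ABHD6 were higher by 0.21 (adjusted p = 0.00905) and 0.18 (adjusted p = 0.0365), although their libraries overlapped those of the controls. FAF2, an ER protein that also sits on lipid droplets and binds PNPLA2, was higher by 0.10 (adjusted p = 0.0387), and its libraries did not overlap the controls. The FAF2 call was lost without siCtrl replicate 1 or 4 or siXBP1 replicate 1 or 4 (adjusted p up to 0.0880). The ABHD6 call was lost without siCtrl replicate 2 or 4 or siXBP1 replicate 1 or 3 (adjusted p up to 0.0949).

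In the phospholipid branch 8 of 24 genes tested were called higher and 7 lower. LPCAT4, a lysophospholipid acyltransferase, rose from 6.88 ± 0.178 to 11.99 ± 0.661 CPM (log2 fold change 0.80, adjusted p = 3.05e-08, edgeR, n = 4 each). PLPP2 and PLPP3, lipid phosphate phosphatases of the plasma membrane, rose by 0.73 (adjusted p = 5.00e-09) and 0.61 (adjusted p = 4.74e-10), whereas PLPP1 of the same family was 0.35 lower (adjusted p = 3.22e-06). PCYT1A, the rate-limiting enzyme of phosphatidylcholine synthesis, fell by 0.64 (adjusted p = 5.79e-11), from 127 ± 3.62 to 81.2 ± 3.21 CPM. PCYT2, its counterpart for phosphatidylethanolamine, and CEPT1, which completes both lipids, were lower by 0.34 (adjusted p = 2.14e-06) and 0.30 (adjusted p = 5.88e-05). The ethanolamine phosphotransferase SELENOI was lower by 0.23 (adjusted p = 0.000107), without overlap of the libraries. The choline kinase CHKA was higher by 0.13 (adjusted p = 0.0402), a call lost without siCtrl replicate 2 or 3 or siXBP1 replicate 2, 3 or 4 (adjusted p up to 0.0790). The cholinephosphotransferase CHPT1 was higher by 0.20 (adjusted p = 0.0148), or by 0.11 without siXBP1 replicate 3 (adjusted p = 0.0671). CHKB, ETNK1, ETNK2 and PEMT of the same routes did not pass the test. Of the remaining calls of the list, CDS2, CDS1 and PISD were higher by 0.13 to 0.32, LPCAT3 was lower by 0.24 (adjusted p = 0.000465) and CDIPT by 0.20 (adjusted p = 0.00768, or 0.0512 without siXBP1 replicate 4).

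**Figure D4:**
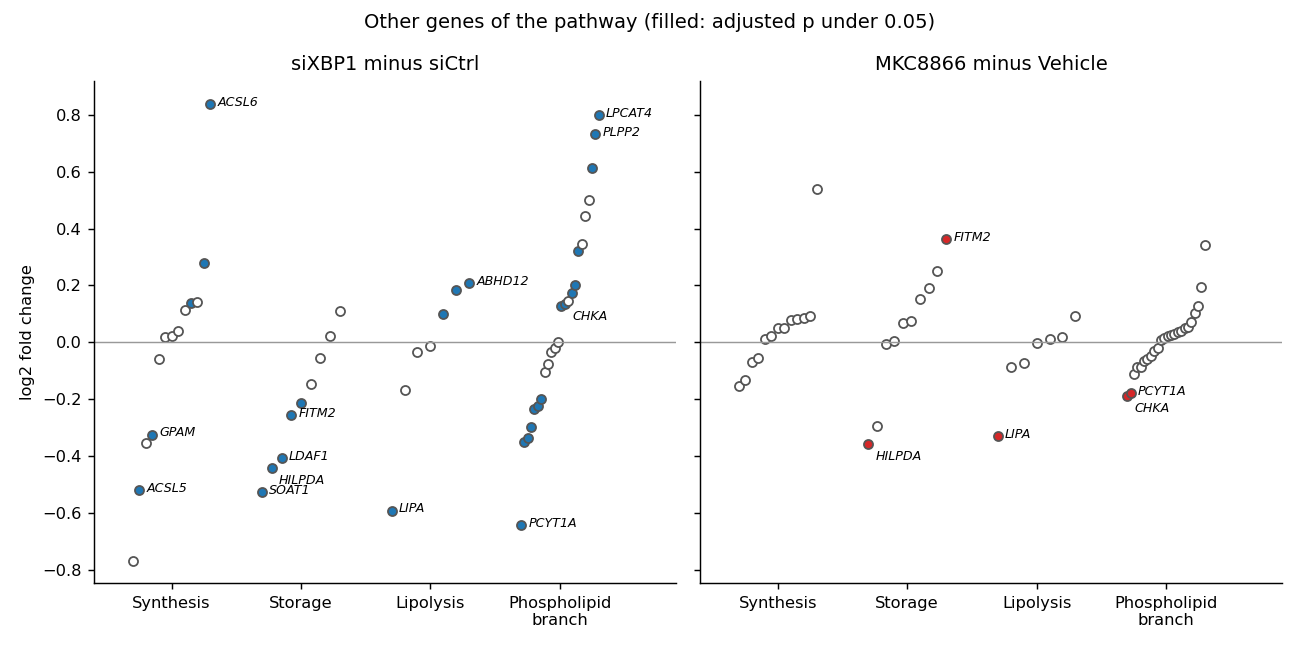
Log2 fold change of every tested gene of the 4 other lists after XBP1 knockdown (left) and with MKC8866 (right), ordered by value within a list, with filled points for an adjusted p under 0.05. After knockdown 29 of 53 genes are filled, and with MKC8866 5 of 54.

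With MKC8866, 54 of the 66 genes were tested, 1 was called higher and 4 lower, and 49 did not pass the test, against 1.36% of all genes tested called higher and 3.11% lower. Of the 13 synthesis genes 0 passed it with edgeR or with DESeq2, 1 had an unadjusted p under 0.05 in edgeR, and all of their log2 differences lay between -0.16 and 0.54. FITM2 was the gene called higher, at 27.8, 28.9, 28.9 and 32.1 CPM with Vehicle and at 34.9, 36.6, 40.3 and 39.4 CPM with MKC8866. The groups did not overlap, and FITM2 rose by 0.36 on the log2 scale (SE 0.0586, adjusted p = 0.000198, edgeR). HILPDA was 0.36 lower (adjusted p = 0.00977) and LIPA was 0.33 lower (adjusted p = 4.31e-05), both also lower after knockdown. PCYT1A and CHKA were lower by 0.18 (adjusted p = 0.0158) and 0.19 (adjusted p = 0.0368). Without Vehicle replicate 3, neither PCYT1A (adjusted p = 0.0872) nor CHKA (adjusted p = 0.107) passed and 2 genes were called lower. The CHKA call was also lost without any other library except MKC8866 replicate 2 (adjusted p 0.0216 to 0.107 over the 8). With replicate number as a block, 3 of the 54 genes were called higher and 6 lower. Over all genes, that fit called 1262 higher and 1484 lower. The MKC8866 libraries lay wholly above the Vehicle libraries for 7 of the 54 genes and wholly below for 6. Over all genes tested these shares were 3.98% and 5.29%.

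A test of the difference between the responses, in a fit of all 16 libraries, called 19 of the 53 genes tested, 8 with a higher and 11 with a lower response to knockdown than to MKC8866. Of the 20357 genes in this test, 23.3% were called. FITM2, lower after knockdown and higher with MKC8866, differed by -0.62 (SE 0.0795, adjusted p = 6.11e-07, edgeR interaction). GPAM differed by -0.40 (adjusted p = 2.44e-06) and SOAT1 by -0.52 (adjusted p = 2.50e-07). HILPDA, lower in both comparisons, differed by -0.08 (SE 0.124, adjusted p = 0.700), an interval that leaves room for unequal responses.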

How the data were processed

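Total RNA of the 16 LNCaP libraries was prepared with a stranded kit and sequenced in pairs. According to the submitters' processing notes and the paper's methods, the authors aligned reads to hg38 with STAR 2.5.2a and counted them with featureCounts (1.5.0-p3 in the file header) on Ensembl release 85. The deposited values are raw counts of fragments per gene, not normalised and counted without regard to strand. A symbol was matched to 56948 of 58051 genes.

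Each treatment was compared here with its control in a separate edgeR fit (version 4.0.16 in R 4.3.3, TMM factors, quasi-likelihood test, two-sided). A gene entered a fit if both groups had a library with over 5 counts of it. The threshold was 0.05 for the p-value after Benjamini-Hochberg adjustment over the whole fit. The interaction used all 16 libraries. Intervals are 95%. On simulated counts, 97.1% of genes changed by 0.5 on the log2 scale were recovered in the knockdown comparison (20507 genes) and 98% in the inhibitor comparison (20535 genes), with 23 and 20 false calls. The changed genes were drawn only from those above a mean count that PLIN2 and ACSL6 did not reach. These shares therefore do not apply to genes with few counts. Alternatives were DESeq2 1.42.0, RLE factors, other filters, a replicate block, 1 fit of all libraries and leaving out each library. The rule for named genes took all 10 genes, the called genes of the 4 other lists with the 3 largest changes per list and comparison first, XBP1, and the 5 genes at each end of the correlation with DGAT2. Genes and lists were chosen with earlier results of these data known.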

Additional observations from a re-analysis of the deposited data

Results flagged for a closer look

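Among the pathway genes outside the 10, 19 had responses to XBP1 knockdown and to MKC8866 that differed in the edgeR interaction test. The response to knockdown was lower than that to MKC8866, on the log2 scale, by the differences -0.62 for FITM2, -0.52 for SOAT1, -0.48 for LDAF1, -0.46 for PCYT1A, -0.40 for GPAM, -0.39 for PCYT2, -0.35 for CEPT1, -0.30 for PLPP1, -0.26 for LIPA, -0.19 for SELENOI and -0.14 for ACSL3 (adjusted p = 0.0450 for ACSL3 and smaller for the others). ACSL3 was called in neither comparison by itself. It was higher for PLPP2 (0.71), LPCAT4 (0.61), PLPP3 (0.49), GK (0.35), CHKA (0.32), CDS2 (0.31), ACSL1 (0.20) and FAF2 (0.19). FITM2 and CHKA were called in opposite directions in the comparisons, CHKA with both calls close to the threshold. For DGAT2 the response differed by -2.91, with every MKC8866 library higher than every Vehicle library, and this difference was not tested.

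Of 160 groups of 4 libraries screened, 8 held a library far from the other 3, past the critical value of Dixon's test, which chance passes in about 1 of 20 groups. They were ACSL5 in Vehicle replicate 1 (1.05 CPM), HILPDA in siCtrl replicate 2 (7.57 CPM), HILPDA in MKC8866 replicate 4 (6.86 CPM), ABHD6 in Vehicle replicate 4 (17.5 CPM), ACSL3 in siXBP1 replicate 1 (485.7 CPM), PLPP3 in siXBP1 replicate 3 (73.3 CPM), and SELENOI (148.7 CPM) and CDIPT (35.75 CPM) in siXBP1 replicate 4. Each was the lowest library of its group except that of SELENOI, which was the highest, and none concerned the 10 genes.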

How the results depend on the processing

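Of 362 values recomputed under alternatives for 61 results, 348 kept their direction and side of the threshold (or, without a test, moved by less than the spread, and, for counts of genes, by at most 1.5 times), as did 453 of 496 with 1 library left out. No called value reversed, and the differences of LPIN1, PLIN2 and MGLL with MKC8866, all near 0, changed sign with 1 library left out. The fall of DGAT2 after knockdown did not keep its call in every fit: the log2 fold change was -0.27 with DESeq2 (adjusted p = 0.0801), RLE factors in edgeR (0.0535), no filter (0.0935) and at least 10 counts in every library (0.0532), and -0.34 to -0.23 with 1 library left out, and the cause was not tested. In 1 fit of all 16 libraries it stayed called (-0.28, adjusted p = 0.0196). GPAT3 lost its call under the same 4 alternatives (adjusted p 0.0529 to 0.0787), so that 4 to 6 of the 10 genes were called lower. CHKA lost both calls with no filter (adjusted p = 0.0795 after knockdown and 0.0546 with MKC8866), and FAF2 lost its call after knockdown (0.0639). Pathway genes called lower with MKC8866 numbered 2 to 4 with 1 library left out. PLIN2 had 20 to 46 counts per library, which limits its precision.

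Replicate numbers are shared by the groups, but same-numbered libraries correlated by 0.0096 to 0.0618 in the knockdown and 0.0794 to 0.3176 in the inhibitor experiment (mean of libraries with different numbers -0.013 and -0.064). In the inhibitor experiment 3 of 4 pairs were over 0.1 and 6 of 8 libraries were closest to their own number, a hint from the data and not the design. As not every pair was over 0.1, the numbers were not taken as pairs. With the replicate block, pathway genes called with MKC8866 numbered 3 higher and 6 lower instead of 1 and 4, and calls over all genes rose from 287 higher and 654 lower to 1262 and 1484, whereas after knockdown DGAT2 stayed called (adjusted p = 0.0456) and CHKA (0.0537) and FAF2 (0.0516) did not.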
